A study of Drosophila melanogaster with 2 samples.

Results

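Distal intronic summits are binding maxima of the Drosophila repressor E(spl)m5-HLH that lay inside a gene, outside every annotated exon, and more than 1000 bp from the nearest start site, which had to belong to a protein-coding gene. By this rule of position 535 of the thresholded summits were distal intronic (21.5%, 95% Wilson interval 19.9 to 23.2) and the other 1952 were not. The rule used no measured value except presence in the thresholded list. That list was thresholded for reproducibility and its lowest pooled signal was 114, so signal and replicate ranks varied only within this selection. Host gene and sequence played no part in the rule. The study measured chromatin binding by ChIP-seq in Drosophila melanogaster, with 2 biological replicates, numbered 3 and 4, that form 1 group. Both were whole embryos of both sexes, aged 0 to 12 hours, from 1 transgenic line that expresses E(spl)m5-HLH with GFP fused to its C terminus. Whether the line keeps an untagged copy of the gene is not stated by the labels, and no list from embryos without the tag was used. Their chromatin was sonicated to 200 to 800 bp. The antibody label names E(spl)m5-HLH and the assay is given as transcription factor ChIP-seq, whereas a free-text description of each sample speaks of an input control; this conflict was not resolved. The design has no second genotype, stage or treatment, so the comparisons below are between replicates, between positions in the genome, and between summits and their surroundings. Whole embryos mix many cell types, and a summit seen in few cells cannot be told from a weak summit seen in many.

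E(spl)m5-HLH is one of the basic helix-loop-helix repressors encoded in the Enhancer of split complex. Notch signalling switches these genes on, and their products recruit the corepressor Groucho and hold back the proneural genes, so that neighbouring cells do not all become neural precursors. The family is known to bind E-boxes and related sites, chiefly CACGTG and CACGCG, as dimers. Introns, above all the long first introns of developmental regulators, are a common place for the enhancers of Drosophila genes.

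The sequences that follow show the family's sites as they occur at distal intronic summits. Within 100 bp of the summit, 22 of the 535 summits held CACGTG (4.11%), against 5.79% of all thresholded summits, and 50 held CACGCG on either strand (9.35%), against 9.81%. Capitals mark the CACGTG match in the first 6 lines, which are 5 of the strongest holders and the summit in ey, where a second copy of the letters stands just before the marked one. Capitals mark CACGCG, or CGCGTG where the match is on the minus strand, in the next 3 lines, and CAGCTG, a box bound by proneural activators, in the last. All are plus-strand bases of the dm6 assembly, read from RefSeq's Release 6 genome, 5′ to 3′.
numb (chr2L:9454514-9454543): agaatccttcgcCACGTGcaccgagccata
Rbfox1 (chr3L:10519154-10519183): acgttgtagtcaCACGTGtgtgaggttccc
lncRNA:CR32773 (chrX:4563070-4563099): cacattgagcggCACGTGcccctttcggtt
PH4alphaEFB (chr3R:30474866-30474895): aattacttttgcCACGTGcgagggcagctg
crp (chr2L:16269650-16269679): agcggcctctccCACGTGctctctctctct
ey (chr4:702996-703025): gttggcacgtgcCACGTGgcgattgcttgg
trx (chr3R:14278784-14278813): tttggcacgtagCACGCGctctctctgtct
Tet (chr3L:2853134-2853163): ttacattgttggCACGCGcaggcgcgcaca
pico (chrX:19842431-19842460): agcggcaagtgaCGCGTGtccttaaatgca
msi (chr3R:25596559-25596588): gttccctcggcgCAGCTGttcctgcgacct

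The strongest distal intronic summits stood among the strongest of the whole list in both replicates. Signal here is the authors' value for each peak, from peak calling against a control; its scale is not given, each list has its own, and replicates are therefore compared by rank. In the pooled list 4 distal intronic summits were among the 20 highest and 21 among the 100 highest. The strongest lay in a first intron of sbb, which encodes the transcriptional cofactor Scribbler, at chr2R:18336900-18337369 and 20115 bp from the nearest start. Its signal was 668 in replicate 3, 744 in replicate 4 and 1401 in the pool, and it ranked 6 and 5 in the replicates. The second lay in cno, the gene of the junctional actin linker Canoe, 1927 bp downstream of the start at chr3R:5215369-5215674. Its signal was 544 and 598 in the replicates, with ranks 12 and 10. The third was in the 140 bp intron of CG11050, the shortest intron that held a distal intronic summit, with signals of 520 and 513 and ranks 17 and 15. A summit in Tlk, which encodes the Tousled-like kinase, followed with 510 and 403, at ranks 18 and 31. All 4 were thus high in both embryo samples. None of them held CACGTG or CACGCG within 100 bp, and of all 535 only 12.9% held either.

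**Figure D1:**
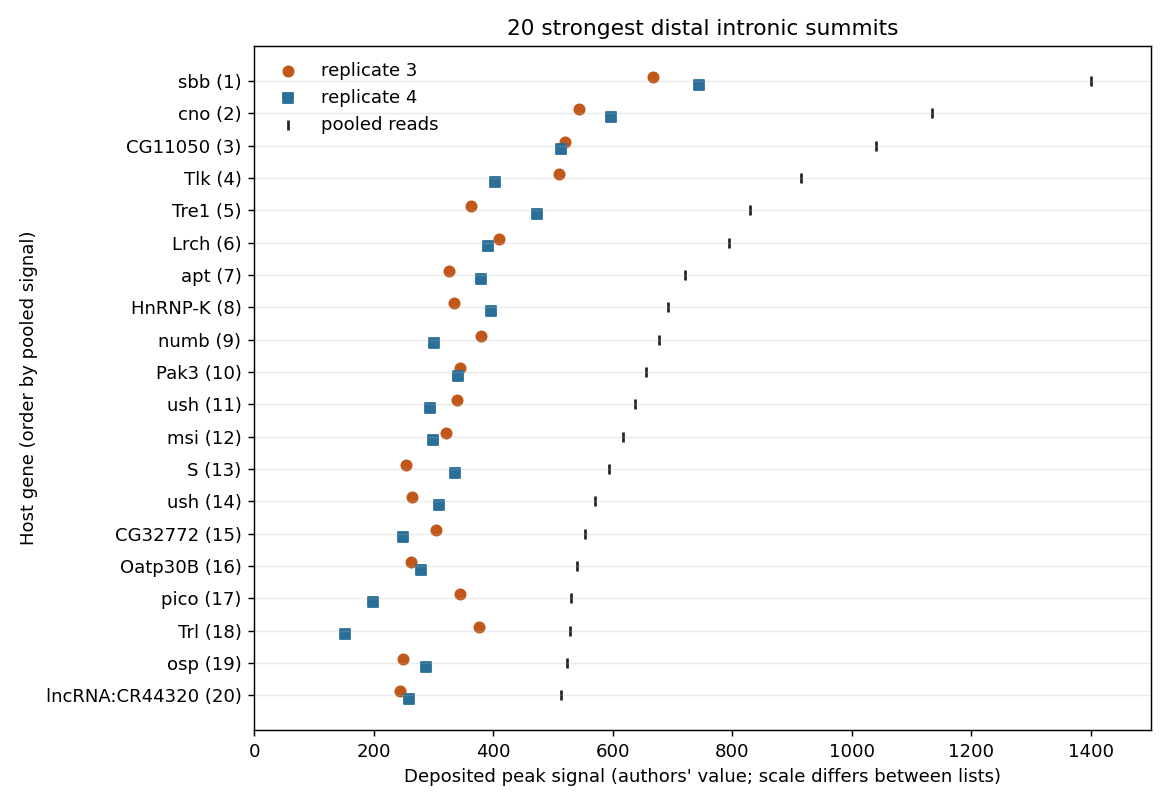
Signal of the 20 strongest distal intronic summits (horizontal axis, the authors' signal per peak) by host gene, with replicate 3, replicate 4 and the pooled list as separate points; each list has its own scale. The sbb summit leads in every list at 668, 744 and 1401, and the points of Trl lie far apart, at 377 in replicate 3 and 152 in replicate 4.

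The other strong summits lay in genes of varied function. Tre1, a receptor that guides germ cells and orients neuroblasts, had a summit 1106 bp upstream of its nearest start with signals of 363 in replicate 3 and 473 in replicate 4. Lrch held one with 410 and 392, and apt, the gene of the transcription factor Apontic, one with 326 and 379. The apt summit held both CACGTG and CACGCG and was the strongest distal intronic summit with either. HnRNP-K, which encodes an RNA-binding protein, followed at ranks 53 and 32. The numb summit, in the gene of the Notch inhibitor that is handed to 1 daughter of an asymmetric division, had signals of 379 and 301, ranks 40 and 61, and the CACGTG printed above. Pak3, a kinase that acts on the actin cytoskeleton, stood at ranks 51 and 43, and msi, which encodes the RNA-binding protein Musashi of sensory organ precursors, at 59 and 62.

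The u-shaped gene, ush, which encodes a partner of GATA factors in dorsal ectoderm and blood, held 2 of the 20. One was nearest to the start of cbt, the gene of the transcription factor Cabut, with signals of 339 and 295 in replicates 3 and 4. The other was nearest to a start of ush itself, with 264 and 309. Star (S), whose product carries EGF receptor ligands out of the cell's secretory pathway, had 255 in replicate 3 and 336 in replicate 4. CG32772, Oatp30B, osp and lncRNA:CR44320 gave ranks between 67 and 123 in either replicate. Another 2 of the 20 were less alike between the samples. At pico, the gene of an actin regulator that binds Ena, the ranks were 50 and 168, and at Trl, the gene of the GAGA-binding factor, they were 41 and 340. Both ranked higher in replicate 3.

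Over all 535 summits the median pooled signal was 164 (95% interval of the median 157 to 172), with the middle of the range from 134 to 232, the lowest at 114 and the highest at 1401. All thresholded summits together had a median of 162 (158 to 165). Intronic summits within 1000 bp of a coding start had 162, intergenic ones beyond that distance 170, and exonic ones 156. Intronic summits whose nearest start was of a non-coding gene had the highest median of the classes, 180 (161 to 199). The class medians thus lay between 156 and 180, while the strongest peak of the whole list, at 2284, lay beyond the strongest distal intronic one. The share of distal intronic summits in the list changed little from its top to its threshold. They made up 21.0% of pooled ranks 1 to 100, 21.8% of ranks 101 to 500, 22.3% of those from 501 to the median rank and 21.0% from there, rank 1244, to the threshold. Below the threshold their share was higher, at 25.8% of ranks 5001 to 10000 and 31.8% of ranks 20001 to 30000. Introns that meet the position rule cover 37.4 Mb, or 28.0% of the genome. Replicate 3 gave 31.7% and replicate 4 gave 29.8% for the last interval, and 21.0% and 22.8% for ranks 101 to 500. In each list the share thus lay below 28.0% within the threshold and above it among the weakest candidates; the difference was not tested.

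**Figure D2:**
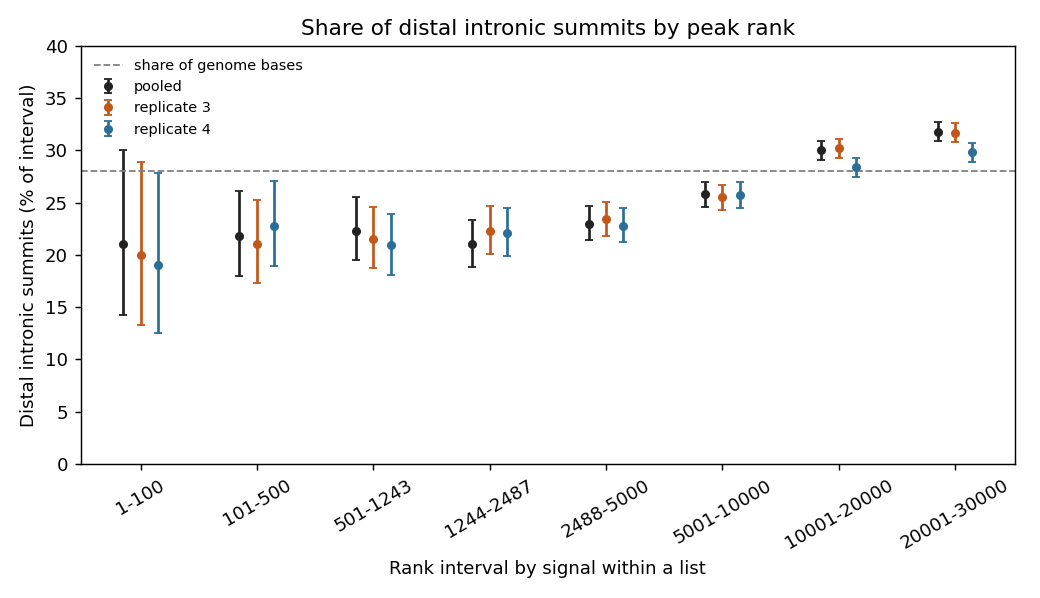
Share of candidate summits that were distal intronic (vertical axis, percent) by rank interval from strongest to weakest (horizontal axis) in the pooled list and in each replicate, with 95% Wilson intervals as bars and the genome share of 28.0% as a dashed line. All 3 lists sit near 20 to 23% down to rank 5000 and near 30% at ranks 20001 to 30000.

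Most distal intronic summits recurred in both replicates. This was in part a condition of the list, which was thresholded for reproducibility. A candidate summit within 100 bp was present in both replicate lists for 511 of the 535 (95.5%, against 92.6% of all thresholded summits). For each replicate, its strongest summits were taken as those with the highest signal, as many as the thresholded list holds. Among the strongest of both replicates were 338 distal intronic summits (63.2%, 59.0 to 67.2), against 58.0% of all thresholded summits, 58.3% of intronic summits close to starts, 61.0% of distal intergenic and 52.9% of exonic ones. Intronic summits whose nearest start was of a non-coding gene had a higher share, at 66.4% (57.9 to 74.0, n = 128). A further 84 distal intronic summits reached the strongest of replicate 3 but not of replicate 4. Another 92 reached those of replicate 4 but not of replicate 3, and 21 (3.93%) reached neither. No candidate was matched in replicate 3 for 6 summits and in replicate 4 for 18. The median distance between a summit and its match was 15 bp in replicate 3 and 14 bp in replicate 4. Strength and recurrence went together: of the 100 strongest distal intronic summits 99 reached the strongest of both replicates, and of the 100 weakest 6 did. Because the pooled reads are those of the replicates, a strong pooled summit is partly bound to be strong in each.

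Across the 511 matched summits the ranks in the replicates had a Spearman correlation of 0.539, and the log2 signals a Pearson correlation of 0.629; over all thresholded summits these were 0.469 and 0.573. The summits come from the same 2 libraries and share 1 control, so these values describe the lists and carry no test. Replicate 4 gave the better rank for 299 of the summits and replicate 3 for 212. The better of a summit's ranks was within 2 times the other for 320 of the 511 (62.6%), and it differed by more than 5 times for 33. Of these 33, 20 ranked better in replicate 3 and 13 in replicate 4; over all 2302 matched thresholded summits the numbers were 140 and 94.

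The 5 widest gaps were all in favour of replicate 3, unlike the count of better ranks over all matched summits. At px, the gene of the wing vein protein Plexus, the signal was 138 at rank 499 in replicate 3 and 17.5 at rank 27661 in replicate 4. At simj, which encodes a subunit of the NuRD chromatin complex, the ranks were 181 and 7362. At tara, the gene of a nuclear protein linked to trithorax-group function, they were 258 and 8919. At bmm, the gene of the Brummer fat storage lipase, they were 296 and 10219, and at Sin3A, which encodes a histone deacetylase scaffold, 554 and 11509. Each of the 5 was in the pooled thresholded list, at ranks from 457 to 1339.

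Base composition differed for some of these summits. The windows of 100 bp to either side of the 20 summits that ranked over 5 times better in replicate 3 had a mean GC content of 34.9% (SD 9.20), against 44.0% (SD 8.86) for the 13 of replicate 4 and 43.0% (SD 6.73) for the 478 within 5 times. None of the 20 and none of the 13 held CACGTG, but only 4.11% of all 535 did, so its absence from so few says little. Parted into 4 groups of like size by GC content, the lowest group of distal intronic summits, at 25.4 to 37.3%, held 133, and their median rank was 1070 in replicate 3 and 1511 in replicate 4. In the next groups it was 1524 and 1262, then 1534 and 1264, and in the highest group, at 48.3 to 59.7%, it was 1426 and 992. Of the matched summits in the lowest group 76 ranked better in replicate 3 and 50 in replicate 4. The counts were 41 and 86, then 41 and 90, in the middle groups, and 54 and 73 in the highest. The lowest group thus stood apart from the other 3, and the counts did not follow GC content step by step. The share among the strongest of both replicates was 62.4% in the lowest group and 59.7% in the highest. The part of base composition in the differences between replicates was not tested.

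**Figure D3:**
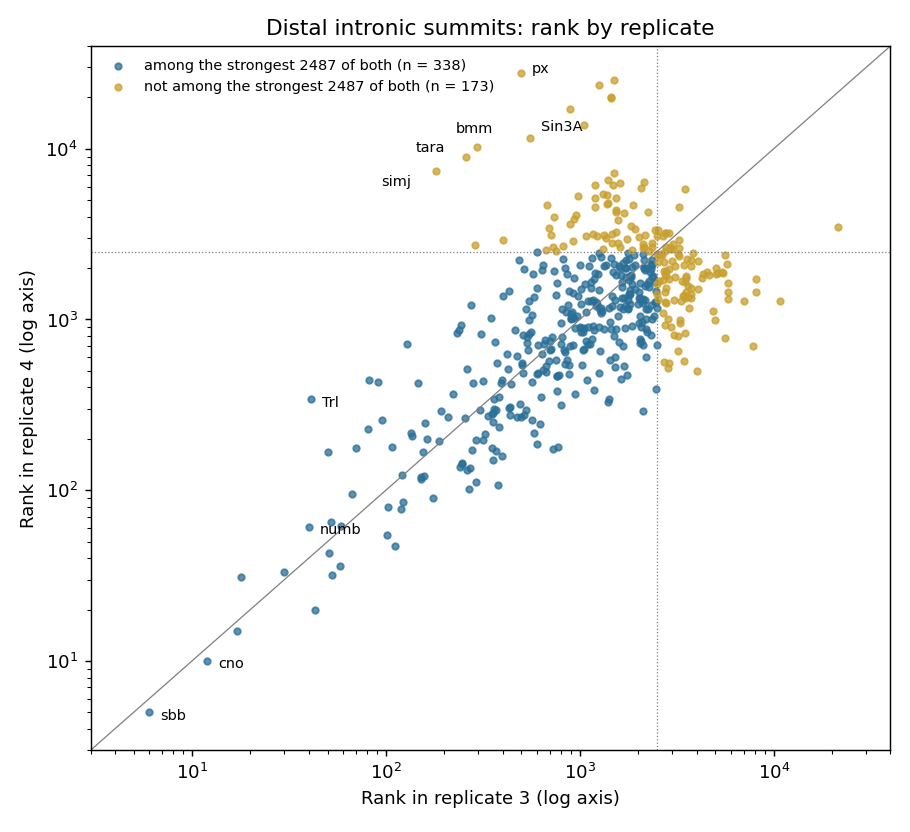
Rank of each distal intronic summit in replicate 3 (horizontal axis, log scale) and replicate 4 (vertical axis, log scale), with dotted lines at the last rank of the strongest summits and a line of equal rank; blue points (n = 338) were above that rank in both replicates and yellow ones (n = 173) were not. The strongest summits lie near the line of equal rank, and px, simj, tara, bmm and Sin3A stand far above it, with far weaker ranks in replicate 4.

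The distal intronic summits lay from 1006 to 42635 bp from the nearest start site, with a median of 3442 bp (3140 to 3877) and the middle of the range from 1802 to 6714 bp. Per megabase of intron that meets the rule, they were most frequent next to the limit. There were 156 between 1000 and 2000 bp from a start (26.0 per Mb), 195 between 2000 and 5000 bp (17.8 per Mb), 105 between 5000 and 10000 bp (11.6 per Mb) and 79 farther away (6.92 per Mb). The same order was seen in the strongest summits of each replicate, with 27.1 and 25.3 per Mb in the nearest interval and 6.22 and 7.10 in the farthest. Candidates below the threshold went from 309 to 137 per Mb over these intervals, a shallower gradient. Signal did not follow distance: its medians were 161, 169, 162 and 158 from the nearest to the farthest interval. The share among the strongest of both replicates was 60.9%, 68.2%, 62.9% and 55.7%.

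The summits just beyond the limit of 1000 bp were in Mkp3, a phosphatase of ERK (1006 bp, signals 68.1 and 92.9 in replicates 3 and 4), Csk, a kinase that restrains Src (1006 bp, 65.8 and 70.7), and NFAT, a transcription factor (1012 bp, 52.0 and 65.4). Just inside it, and so not counted, were intronic summits in Zasp66 (999 bp, 106 in replicate 3 and no candidate in replicate 4), chif (986 bp, 194 and 198) and CBP (986 bp, no candidate in replicate 3 and 78.7 in replicate 4). The limit thus parted summits of similar strength, apart from the stronger one in chif.

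First introns held 371 of the 535 distal intronic summits (69.3%, 65.3 to 73.1). Of all genome windows of that width whose centres met the same rule, 45.3% of 186228 were in first introns, and of 8047 candidate summits that met it but fell below the threshold, 59.0%. Among intronic summits close to starts the share was higher, at 76.7% (309 of 403). An intron was counted as first if it was the first of any transcript. By distance, the first-intron share of distal intronic summits was 79.5%, 71.3%, 65.7% and 49.4% from the nearest to the farthest interval, against 63.6%, 53.3%, 44.7% and 28.3% of genome windows. The strongest summits of the replicates alone gave 67.9% and 69.8%. The introns were long, with a median of 9768 bp and a range from 140 to 139347 bp, and the median summit lay 41.4% of the way into its intron. In 309 cases (57.8%) the summit lay nearer to the intron's 5′ end. The distance limit by itself favours long introns, and no intron length or position of genome windows was set beside these values. The nearest start belonged to the host gene for 434 summits (81.1%, 77.6 to 84.2) and to another gene for 101 (18.9%), among them 48 whose nearest gene was nested inside the host. Of the 434, 335 lay downstream of that start and 99 upstream of it, where a later start of the same gene was the nearest. Wilson intervals cover counting error only.

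**Figure D4:**
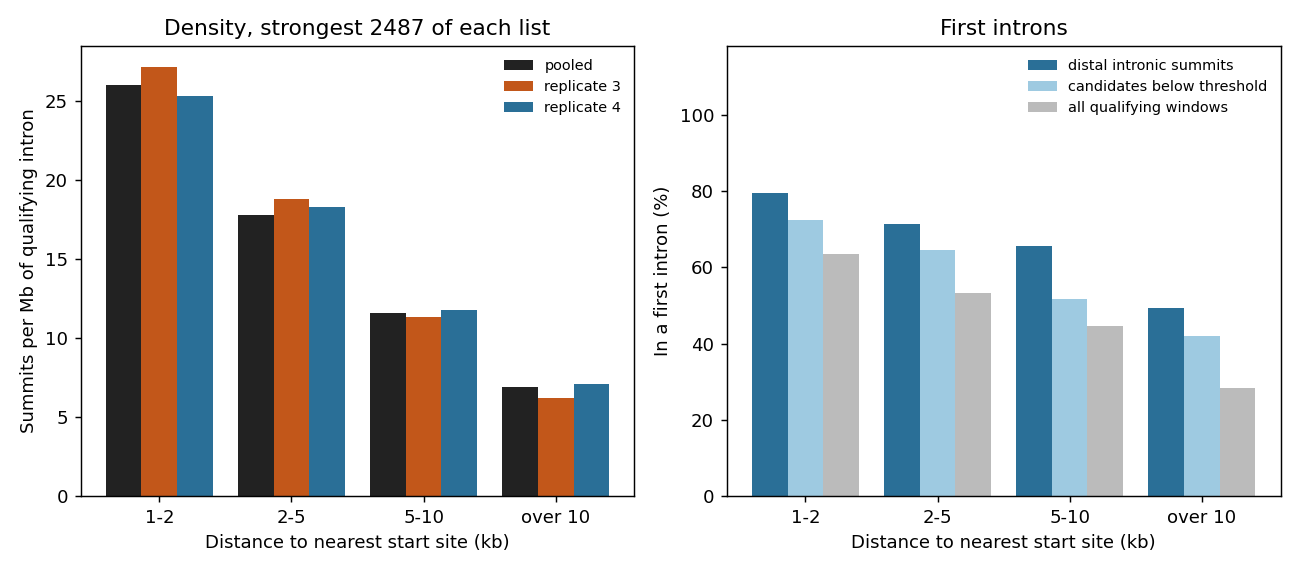
Distal intronic summits per megabase of qualifying intron by distance from the nearest start site in the pooled, replicate 3 and replicate 4 lists (left), and share of summits, below-threshold candidates and genome windows in first introns by the same distances (right, percent). Density goes from 26.0 to 6.92 per Mb in the pooled list, and the first-intron share of summits is above that of windows in each of the 4 intervals.

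The farthest summits were mostly weak ones. In hth, whose product Homothorax brings its partner Extradenticle into the nucleus, summits lay 42635 and 33555 bp from a start. Their signals were 69.7 in replicate 3 and 60.3 in replicate 4 at the first and 52.8 and 74.8 at the second, which held CACGTG. The gene of the muscle fusion receptor Kirre had one at 35689 bp, and Snoo, a Ski family cofactor of Dpp signalling, one at 34917 bp that ranked 2133 in replicate 3 and 6356 in replicate 4. Others lay in CG43759, RhoU, jing, bi and CG42238, between 27023 and 32161 bp. Pooled ranks were beyond 1000 for all of these. The summit in pum, which encodes the translational repressor Pumilio, was stronger: it lay 30862 bp from a start, with signals of 178 and 138 and ranks 280 and 423.

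The 535 summits lay in 367 host genes, counting 1 host for each summit, and 8 of them lay only in non-coding genes. A single summit was present in 265 hosts, 2 in 62, and 3 or more in 40, so that 270 summits (50.5%) shared their host with another. Summits were seldom next to each other: 25 lay within 500 bp of another thresholded summit (4.67%, against 4.42% of all thresholded summits) and 280 within 5000 bp (52.3%, against 46.2%). Of the 6751 coding genes with any intron that met the rule, 374 held a distal intronic summit (5.54%). Hosts had much more of such intron, with a median of 13.7 kb against 0.505 kb in the others. The share of genes with a summit was 1.63% below 5 kb, 18.9% between 10 and 25 kb and 37.2% above 50 kb.

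Of the 374 coding hosts, 170 also had a thresholded summit within 1000 bp of one of their own start sites (45.5%). Among the 6377 other genes with such introns, 889 did (13.9%). By amount of intron the shares were 43.5% against 12.9% below 5 kb, 40.3% against 21.3% between 5 and 10 kb, 51.4% against 16.2% between 10 and 25 kb, 45.9% against 17.3% between 25 and 50 kb, and 41.7% against 12.3% above 50 kb. The share was thus higher in hosts in each of these 5 classes, by the least between 5 and 10 kb, and the difference was not tested.

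Tet, which encodes the fly's dioxygenase of the TET family, held 7 distal intronic summits, more than any other gene. The strongest, printed above for its CACGCG, had signals of 206 in replicate 3 and 161 in replicate 4 and lay 26023 bp from the nearest start. The others had pooled signals from 115 to 195, and 1 had no candidate in replicate 4. Its neighbour in this order, sbb, held 6, of which the weaker 5 had pooled signals from 117 to 270. Kdm4B, a histone demethylase gene whose span is 21785 bp, also held 6, or 6.63 per 10 kb of intron that met the rule, with the strongest at 227 in replicate 3 and 234 in replicate 4. In Kdm4B 2 pairs of summits, and in Lrch 1 pair, came from the same peak interval, so their reads are not separate.

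Of the other hosts with the most summits, lncRNA:CR44357, lncRNA:CR32773, cic, crp, simj and jing held 5 each and Lrch 4, where a summit in overlapping genes counts for each of them. In cic, the gene of the repressor Capicua that ERK signalling relieves, the strongest had ranks of 246 and 145 in replicates 3 and 4. In jing, which encodes a zinc-finger factor of tracheal and glial cells, it had 946 and 366, and in crp, a bHLH leucine zipper gene, 359 and 299. All 4 in Lrch reached the strongest of each replicate, and none of the 5 in simj reached both. Of the simj summits 4 were among the strongest of replicate 3 and 1 among those of replicate 4. In lncRNA:CR32773, 2 of the summits held CACGTG.

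For the developmental gene lists, the share of genes with a distal intronic summit is read beside 5.54%. That is the share among all coding genes with any intron that met the rule. The lists had more of such intron per gene, with medians from 1.87 to 38.4 kb against 0.606 kb over all these coding genes. Among all coding genes the share with a summit went from 1.63% below 5 kb of such intron to 37.2% above 50 kb. A list share above 5.54% is therefore partly a matter of intron amount, and summits per Mb are given beside it where a list held any. The lists were chosen with earlier results of these data known. Of the Notch pathway, 4 of the 15 genes with a qualifying intron held one (26.7%), with 5 by the strongest summits of replicate 3 and 4 by those of replicate 4, at 24.0 summits per Mb against 14.3 per Mb over all qualifying intron. Beside numb these were fng, the glycosyltransferase that tunes ligand choice, with signals of 81.6 and 117 in replicates 3 and 4, neur, the ubiquitin ligase that makes Delta active, with 103 and 78.5, and mam, the nuclear coactivator Mastermind, with 73.8 and 41.9. The mam summit was among the weakest of the list, at rank 2389, and only the one in numb had a pooled rank under 700.

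Of early neurogenesis genes, 4 of 12 held a summit (33.3%), 6 summits in all or 43.6 per Mb. In phyl, which is needed to make sensory organ precursors, 1 summit had signals of 300 and 198 in replicates 3 and 4, at ranks 70 and 177, and a weaker one had 134 and 104. In grh, the gene of the epithelial and late neuroblast factor Grainy head, they were 158 and 106, and in brat, a translational repressor that limits self-renewal of neuroblasts, 98.4 and 123. In pros, the gene of the differentiation factor Prospero, 2 summits had 112 and 132, and 133 and 112. All of these had candidates in both replicates. The proneural gene ase, Asense, held none itself but was the gene nearest to 3 summits in an intron of CG32816, the strongest 3529 bp upstream of ase with ranks of 210 and 268. Of the neuroblast temporal series, 0 of 5 genes held a summit in the pooled list, and 1 of 5 did by the strongest summits of each replicate. A summit in CG9380 had Kr, the gap and temporal gene Krüppel, as its nearest gene at 11269 bp, with ranks of 383 and 350.

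The EGF receptor pathway held summits in 6 of 17 genes (35.3%, also 6 by the strongest summits of each replicate), 11 summits or 55.7 per Mb. They lay in the genes of a ligand, a ligand carrier, an inhibitor, the receptor and nuclear effectors. The other listed genes with such introns, among them spi, Krn, Ras85D, Sos, drk, Dsor1, csw and rl, held none. The ligand gene vn (Vein) had signals of 127 in replicate 3 and 192 in replicate 4, and the secreted inhibitor aos (Argos) had 193 and 99.5 at its stronger summit. The receptor gene Egfr had 82.9 and 86.1. Of the ETS factors at the end of the pathway, the activator pnt (Pointed) had 92.3 and 82.8 at a summit with CACGTG, and the repressor aop (Yan) had 3 summits with pooled ranks from 2137 to 2349. The Egfr and aop summits had pooled signals under the median of 164, as had the weakest of 3 in Star, at 139, and the others were above it.

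Of the Dpp and dorsal ectoderm genes 5 of 16 held a summit (31.2%, with 4 by the strongest summits of replicate 3 and 6 by those of replicate 4), with 11 summits or 60.7 per Mb. Beside ush, the nuclear effector shn (Schnurri) held 4, the strongest with 174 and 189, at ranks 291 and 196. The feedback inhibitor Dad had 97.6 and 112 at its stronger summit. The receptor gene tkv (Thickveins) ranked 1051 and 674, and the ligand gene dpp itself 3208 and 2433, near the threshold. Of the Wingless and Hedgehog pathways 4 of 16 genes held one (25%), at 24.8 per Mb: the receptors fz, with 137 and 122, and fz2, with 93.1 and 105, the ligand hh, with 79.1 and 86.8, and the inhibitor nkd, with 66.2 and 66.9. All 4 had pooled ranks beyond 500.

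Of axon guidance and neural adhesion genes 13 of 26 held a summit (50%, with 11 by the strongest summits of replicate 3 and 10 by those of replicate 4). They have a median of 24.0 kb of qualifying intron, and the density of 16.0 per Mb was close to the 14.3 per Mb over all. The strongest lay in fra, the gene of the Netrin receptor Frazzled, with 189 and 215; NetB, a Netrin gene, had 106 and 123, and robo2, a Slit receptor gene, 84.4 and 120. Of ecdysone and nuclear receptor genes 5 of 10 held one (50%), with 11 summits or 31.2 per Mb at a median of 38.4 kb of intron. Their median signal of 301 was the highest of the 12 lists. Of these genes of the response to the moulting hormone, Hr4 had 259 and 196, Hr3 had 285 and 135, and Eip75B, the gene of the haem-binding receptor E75, held 4 summits with pooled signals from 293 to 367, all also among the strongest of each replicate.

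The remaining lists held few summits, which stood in all but the Hox list above the 14.3 per Mb over all qualifying intron. Of junction and polarity genes 3 of 18 held a summit (16.7%), at 20.7 per Mb: cno, pyd, the gene of the junction scaffold Polychaetoid, with 111 and 108, and crb, the gene of the apical determinant Crumbs, with 60.8 and 78.3. Of mesoderm regulators 2 of 16 did (12.5%), at 18.9 per Mb, Mef2, the muscle differentiation factor, with 103 and 98.0, and zfh1, a repressor, at ranks 640 and 1961. Of Hox genes 1 of 8 did (12.5%), at 5.18 per Mb: the lab summit had 42.2 at rank 5589 in replicate 3 and 104 at rank 777 in replicate 4. A summit in MSAmiP had the Hox gene abd-A nearest, 4782 bp away, with ranks of 645 and 506. Of bHLH genes 2 of 9 did (22.2%), at 40.9 per Mb over little intron, sim, the midline regulator, with 110 and 87.6, and cwo, a clock repressor, with 74.5 and 70.3. With so few genes in a list, a change of 1 gene moves its share by several points, and no share was tested.

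The sites of the family were counted on both strands within 100 bp of each summit, and set beside 2 flanking windows 500 bp away (n = 1070) and the 186228 genome windows that met the position rule. CACGTG was in 4.11% of summit windows (2.73 to 6.15), 1.96% of flanks and 2.23% of genome windows. CACGCG was in 9.35%, 3.36% and 3.14%. Either was in 69 summits (12.9%), against 5.14% and 5.28%, so that most distal intronic summits held neither. The longer GGCACGTG, which contains CACGTG, was in 5 summits (0.935%, against 1.29% of all thresholded summits). By replicate, the distal intronic summits among the strongest of each list held CACGTG in 5.72% for replicate 3 and 5.00% for replicate 4, and CACGCG in 9.04% and 7.78%. CACGTG was in 9.05% of distal intergenic summits, 7.74% of intergenic summits close to starts and 4.96% of intronic summits close to starts.

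For scale, 22 other palindromes of 6 letters with the base composition of CACGTG were counted the same way, CAGCTG being left out as a proneural box. CACGCG is no palindrome and holds more G and C, so they do not match its composition. Their ratio of summit share to flank share ran from 0.364 to 2.00, with a median of 0.952; CACGTG had 2.10 and CACGCG 2.78. With flanks centred 1000 bp away, 2.62% of them held CACGTG in place of 1.96%, which lowers its ratio; the palindromes were not recounted there. Against genome windows the palindromes ran from 0.417 to 2.36, and CACGTG, at 1.84, was inside that range, whereas CACGCG was at 2.98. The highest palindrome in both was ACGCGT, whose letters overlap CACGCG when followed by T. The summit windows were richer in GC than their surroundings, at 42.7% (SD 7.04) against 40.6% in flanks and 40.3% in genome windows; the part of this in the site shares was not tested.

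Summits with CACGTG had a median signal of 176 (135 to 314, n = 22) and those without it 164 (n = 513); for CACGCG the medians were 159 and 165. Above their median signal the distal intronic summits held CACGTG in 4.49%, and below it in 3.73%. The median without CACGTG thus lay within the interval of the median with it. The 5 strongest with CACGTG were those in apt, numb, Rbfox1, lncRNA:CR32773 and PH4alphaEFB. The Rbfox1 summit, in the gene of an RNA-splicing factor, had signals of 248 and 231 in the replicates, and the one in lncRNA:CR32773 had 223 and 174. The summit in PH4alphaEFB, which encodes a collagen prolyl hydroxylase, was nearest to spdo, the gene of the Notch trafficking protein Sanpodo, 1781 bp upstream of it, with 157 and 161. All 5 were among the strongest of each replicate.

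**Figure D5:**
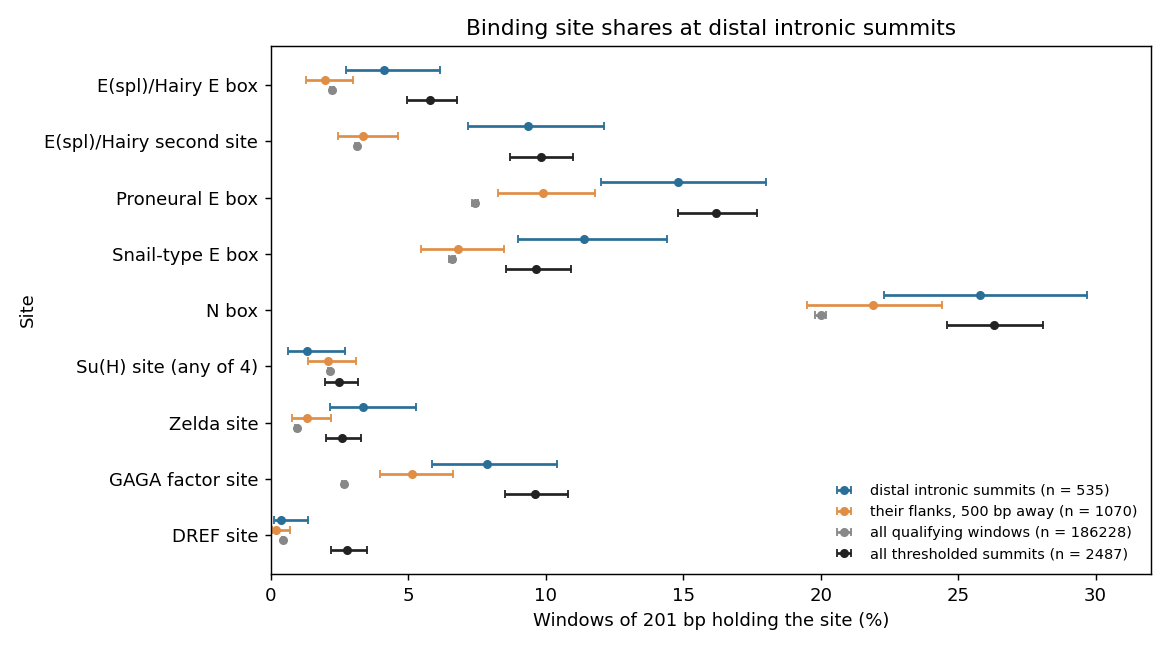
Share of windows (horizontal axis, percent) with each named site at distal intronic summits (n = 535), their flanks (n = 1070), genome windows that meet the position rule (n = 186228) and all thresholded summits, with 95% Wilson intervals. The first row is CACGTG and the second CACGCG, which stands at 9.35% in summits against 3.36% in flanks with intervals that do not overlap. The intervals of the proneural E box (CAGCTG) and of the Snail-type E box (CAGGTG) do not overlap those of their flanks either. In the other rows, CACGTG among them, the intervals of summits and flanks overlap.

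The letters of other factors' sites were counted in the same windows. CAGCTG, a box of proneural activators, was in 79 summits (14.8%, against 16.2% of all thresholded summits), 9.91% of flanks and 7.43% of genome windows. CAGGTG was in 61 (11.4%, against 9.65%), 6.82% of flanks and 6.59% of windows. CACNAG, the N-box of the older literature, was in 138 (25.8%, against 26.3%), with 21.9% in flanks. CAGGTAG, which the early activator Zelda binds, was in 18 (3.36%, against 2.57% of all), 1.31% of flanks and 0.936% of windows. It was in 6.19% of distal intergenic summits and 1.24% of intronic summits close to starts. GAGAGAG, the letters bound by the GAGA factor, was in 42 (7.85%, against 9.61%), 5.14% of flanks and 2.65% of windows. Its shares in those 2 other classes were 4.29% and 17.1%. The promoter element TATCGATA was in 2 (0.374%, against 2.77%), and in 7.54% of the intergenic summits close to starts; GGTCACACT, another promoter element, was in 1 (0.187%, against 1.37%). Any of the 4 spellings CGTGGGAA, TGTGGGAA, CGTGAGAA and TGTGAGAA, which Su(H), the DNA-binding partner of Notch, can bind, was in 7 (1.31%, against 2.49%), 2.06% of flanks and 2.14% of windows. A match is only a string of letters in a window.

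By chromosome, distal intronic summits numbered 99 on 2L, 114 on 2R, 105 on 3L, 132 on 3R, 82 on X and 3 on 4. Per megabase of intron that met the rule this was between 14.9 and 16.1 on the arms of chromosomes 2 and 3, 10 on X and 6.54 on 4. As a share of each chromosome's thresholded summits, they made up 26.5% on X, 14.3% on 4 and 19.9 to 21.9% on the arms of chromosomes 2 and 3, so that their lower density on X was not matched by a lower share. The strongest summits of the replicates alone gave 90 and 83 on X, and 2 and 4 on chromosome 4. Embryos of both sexes were pooled, so X was present at a lower copy number than the autosomes on average, and copy number cannot be told apart from the density of sites there.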

How the data were processed

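Peak lists were deposited for replicates 3 and 4, for their pooled reads, and as 1 list thresholded for reproducibility. Per the deposited text files, all were called against 1 shared control alignment on dm6. What was not given in the sources used here was the aligner, the caller, the threshold and the depth. A peak's signal is a value the authors' peak calling gave it, on a scale that is not stated. The −log10 q values deposited beside it had a single, maximal value throughout the thresholded list and could not rank peaks. Each candidate list held 30000 peaks. Summits were classed by Ensembl release 115 with transposable elements ignored, using the start sites of all transcripts, and were matched between lists within 100 bp. Sequence came from RefSeq's Release 6 genome. The labels call the samples biological replicates, and with 2 samples in 1 group no test was made; none was made over regions either, since these share libraries.

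Members and lists were chosen with earlier results of these data known. Named genes were the hosts of the 20 strongest summits, the 10 hosts with most summits, up to 3 per list (12 lists, 213 symbols, all matched), the 5 strongest summits with CACGTG, the 10 farthest, the 5 with the largest rank ratio and 3 on each side of the distance limit. Other listed genes (mam, pros, pnt, Egfr, aop, tkv, dpp, nkd), the genes nearest to a summit without hosting it, and the summits in crp, ey and trx were named after their values were seen. Alternatives were a stricter list, either replicate by itself, other distance limits, start sites, windows and matching, merged summits and coding hosts only. The counting was tested on simulated data. Tools were matplotlib 3.10.9, pandas 2.3.3, scipy 1.17.1 and numpy 2.4.6 under Python 3.11.15.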

Additional observations from a re-analysis of the deposited data

How the results depend on the processing

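With only the thresholded summits above the list's median rank, 274 were distal intronic, in 210 host genes, with a median signal of 230 and 92.3% among the strongest of both replicates. A limit of 500 bp put the median distance at 2432 bp, and 2000 bp put it at 4929 bp, with the host's start nearest for 77.3% and a first intron for 65.2%. With 1 start site per gene the median distance was 4949 bp and the host's start was nearest for 64.3%. Matching within 50 bp left 53.8% among the strongest of both replicates, and a window of 50 bp each side held CACGTG in 2.62%. Flanking windows centred 1000 bp away held CACGTG in 2.62%, against 1.96% at 500 bp. What lay behind these shifts was not tested. The intervals of the flank shares overlapped, at 1.82 to 3.76 for 1000 bp and 1.29 to 2.98 for 500 bp. Each replicate alone gave 540 to 542 distal intronic summits, a median distance from 3268 to 3519 bp, the host's start nearest for 82.1 to 82.6% and CACGTG in 5.00 to 5.72%. Requiring a coding host left 527 summits, and removing summits within 500 bp of a stronger one left 522. No paired analysis was possible because the 2 samples form 1 group. Depth is unknown, so the precision of a single signal value could not be set.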
